A study of Mus musculus with 12 samples.

Results

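The receptors for GABA and glutamate are built from a large set of subunit genes, and 47 of the 23284 genes in the count tables carry their symbols. The set was taken by symbol alone: the alpha, beta, gamma, delta, epsilon, pi, theta and rho chains of the GABA-A receptor (Gabra to Gabrr), both GABA-B subunits, the AMPA (Gria), kainate (Grik), NMDA (Grin) and delta (Grid) subunits, and the metabotropic glutamate receptors (Grm). The RNA came from 12 neuroendocrine carcinomas of the mouse thyroid, compared to find the genes under control of Crebbp, which encodes a histone acetyltransferase and transcriptional coactivator. By the genotype label, 7 tumours were Rb1/Trp53 (RP) and 5 were Rb1/Trp53/Crebbp (RPC), so Rb1 and Trp53, both tumour suppressors, are named in the genotype of every tumour and Crebbp in that of the RPC-labelled tumours only. The labels give neither the alleles and how they were deleted nor the strain, the age or whether each tumour came from its own mouse. A p-value here therefore reflects the spread among the tumours sequenced. Tumours are numbered as in the labels (RP 1 to RP 7, RPC 1 to RPC 5).

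GABA-A receptors are chloride channels, usually of alpha and beta chains with a gamma or delta chain, while GABA-B receptors are obligate pairs of a ligand-binding and a G protein-coupling subunit. AMPA, kainate and NMDA receptors are cation channels opened by glutamate, and metabotropic glutamate receptors signal through G proteins. Outside the brain, both transmitter systems are known in endocrine cells, among them pancreatic islet and adrenal chromaffin cells, which release peptide hormones or amines from granules as the calcitonin-producing C cells of the thyroid do.

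Crebbp was first recognised as a partner of CREB, a factor that binds the cAMP response element, so the start regions of the receptor genes were searched for that element and for common promoter motifs. RefSeq start regions (GRCm38.p6, 250 bases before to 50 bases after a transcription start) were at hand for 32 of the 47 genes, as 39 windows among 32851 for the whole genome. The full element, TGACGTCA, read on both strands, was in 0 of the 39 windows and in 1.79% of all windows. Its shorter form TGACG, which lies within the full element, was in 5 windows, 1 each of Gabrb2, Gabrr1, Grik2, Grin1 and Grm8, against 20.8% of all windows. A GC box, GGGCGG, was in 19 windows of 18 genes, against 35.7% of all windows. It was present in all 7 genes that both had a window and differed between the genotypes below (Gabbr1, Gabbr2, Gabra4, Gabrq, Grik4, Grik5 and Grin2c), and in 11 of the other 25. A match or its absence in these windows says nothing on the factor itself.

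The following 5 of those start regions are printed 5′ to 3′ on the gene's strand, with GC boxes in capitals (CCGCCC is the box on the other strand). They were chosen because Gabbr1 and Gabbr2 encode the partners of one receptor and moved in opposite directions, and because Gabra4, Grik4 and Grin2c separated the genotypes in every tumour. Their positions are chr17:37045716-37046015 (plus strand) for Gabbr1, chr4:46991665-46991964 (minus strand) for Gabbr2, chr5:71658259-71658558 (minus strand) for Gabra4, chr9:42944322-42944621 (minus strand) for Grik4 and chr11:115267194-115267493 (minus strand) for Grin2c.
Gabbr1: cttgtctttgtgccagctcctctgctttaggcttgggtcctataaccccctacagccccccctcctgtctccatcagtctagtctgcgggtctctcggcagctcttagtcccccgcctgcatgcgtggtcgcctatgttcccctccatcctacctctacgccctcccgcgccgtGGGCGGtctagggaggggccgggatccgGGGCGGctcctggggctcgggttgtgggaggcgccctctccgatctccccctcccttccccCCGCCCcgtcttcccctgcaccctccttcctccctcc
Gabbr2: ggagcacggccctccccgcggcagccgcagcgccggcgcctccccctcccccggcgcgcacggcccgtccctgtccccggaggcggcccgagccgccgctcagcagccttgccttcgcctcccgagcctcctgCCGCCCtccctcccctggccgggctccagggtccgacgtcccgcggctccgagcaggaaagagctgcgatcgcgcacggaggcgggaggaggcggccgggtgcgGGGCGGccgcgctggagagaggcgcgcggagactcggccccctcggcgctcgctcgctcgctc
Gabra4: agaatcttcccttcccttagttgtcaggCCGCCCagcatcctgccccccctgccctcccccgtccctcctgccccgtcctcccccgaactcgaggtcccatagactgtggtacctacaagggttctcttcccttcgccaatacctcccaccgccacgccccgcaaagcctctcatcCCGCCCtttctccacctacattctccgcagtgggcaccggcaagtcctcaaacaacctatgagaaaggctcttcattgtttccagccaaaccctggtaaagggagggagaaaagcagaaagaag
Grik4: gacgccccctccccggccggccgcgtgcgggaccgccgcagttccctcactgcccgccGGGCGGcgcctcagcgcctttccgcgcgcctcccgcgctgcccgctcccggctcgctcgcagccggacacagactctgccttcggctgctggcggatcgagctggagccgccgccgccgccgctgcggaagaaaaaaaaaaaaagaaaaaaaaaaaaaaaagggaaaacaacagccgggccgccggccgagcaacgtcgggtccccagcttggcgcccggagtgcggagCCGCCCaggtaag
Grin2c: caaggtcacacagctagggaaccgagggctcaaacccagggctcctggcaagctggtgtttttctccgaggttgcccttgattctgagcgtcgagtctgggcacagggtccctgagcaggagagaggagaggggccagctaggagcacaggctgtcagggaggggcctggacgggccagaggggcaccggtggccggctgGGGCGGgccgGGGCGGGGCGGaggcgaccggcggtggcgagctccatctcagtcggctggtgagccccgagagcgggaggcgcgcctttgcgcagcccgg
The GABA-B genes moved in opposite directions while both start regions hold GC boxes, 3 in Gabbr1 and 2 in Gabbr2.

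Depth ranged from 9.11 M to 57.3 M gene counts per tumour (RP 5 the deepest), and 3 counts, taken as the floor, corresponded to 0.0502 to 0.312 CPM (counts scaled to 1 M per library, with TMM factors). Crebbp itself had a median of 49.3 CPM in tumours labelled RP and 52.4 CPM in those labelled RPC. Counts over the whole gene were thus not lower in tumours labelled RPC, so they do not check the deletion, and every direction below rests on the labels. The tumours matched their tissue label: the C cell hormone gene Calca and 9 other neuroendocrine genes were all detected well enough to be tested, together at 25661 to 233437 CPM. Some libraries stood apart: RP 1 and RP 6 held 5.83 and 2.52 CPM of Xist, the RNA of the inactive X chromosome, against 1802 to 3183 CPM in the others, and differed in the Y-linked gene Ddx3y (72.6 CPM in RP 1, no count in RP 6). RP 6 and RPC 5 were high in skeletal muscle genes, and RP 3 and RPC 4 were the lowest RP-labelled and the highest RPC-labelled tumour in thyroid follicular genes. RP 2, RP 4, RP 6 and RP 7 were the highest in adipocyte genes. In bulk tumour RNA, fewer cells of a type and less RNA per cell cannot be told apart.

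Of the 47 genes, 32 had enough counts to be tested, and 12 of these (37.5%) differed between the genotypes at an adjusted p under 0.05 in edgeR's quasi-likelihood test, against 18.3% of all 14989 tested genes. The RPC-labelled tumours were higher for 10 (background 9.64%) and lower for 2 (background 8.61%). For 6 genes the tumours of the genotypes did not overlap, 5 higher and 1 lower, where 6.26% of all tested genes did not overlap (3.62% higher, 2.64% lower). Values of log2 fold change were above 0 for 24 of the 32 and below 0 for 8, with a median of 0.43, against -0.02 over all tested genes. The filter on low counts needed 5 tumours. Of the 12 genes, 4 that rose (Grik4 and Grm4 among them) reached it only through the RPC-labelled tumours, and Grin2c, which fell, only through the RP-labelled ones, so these counts describe the tested genes and not the whole set. The count of 12 was 7 without RPC 1 (8.73% of all genes passing), 7 without RPC 2 (7.08%), 7 without RP 1 and RP 6 (13.1%) and 5 without RP 6 and RPC 5 (5.02%). The genes that rose came from 6 of the receptor classes and the genes that fell from the GABA-B and NMDA classes.

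**Figure D1:**
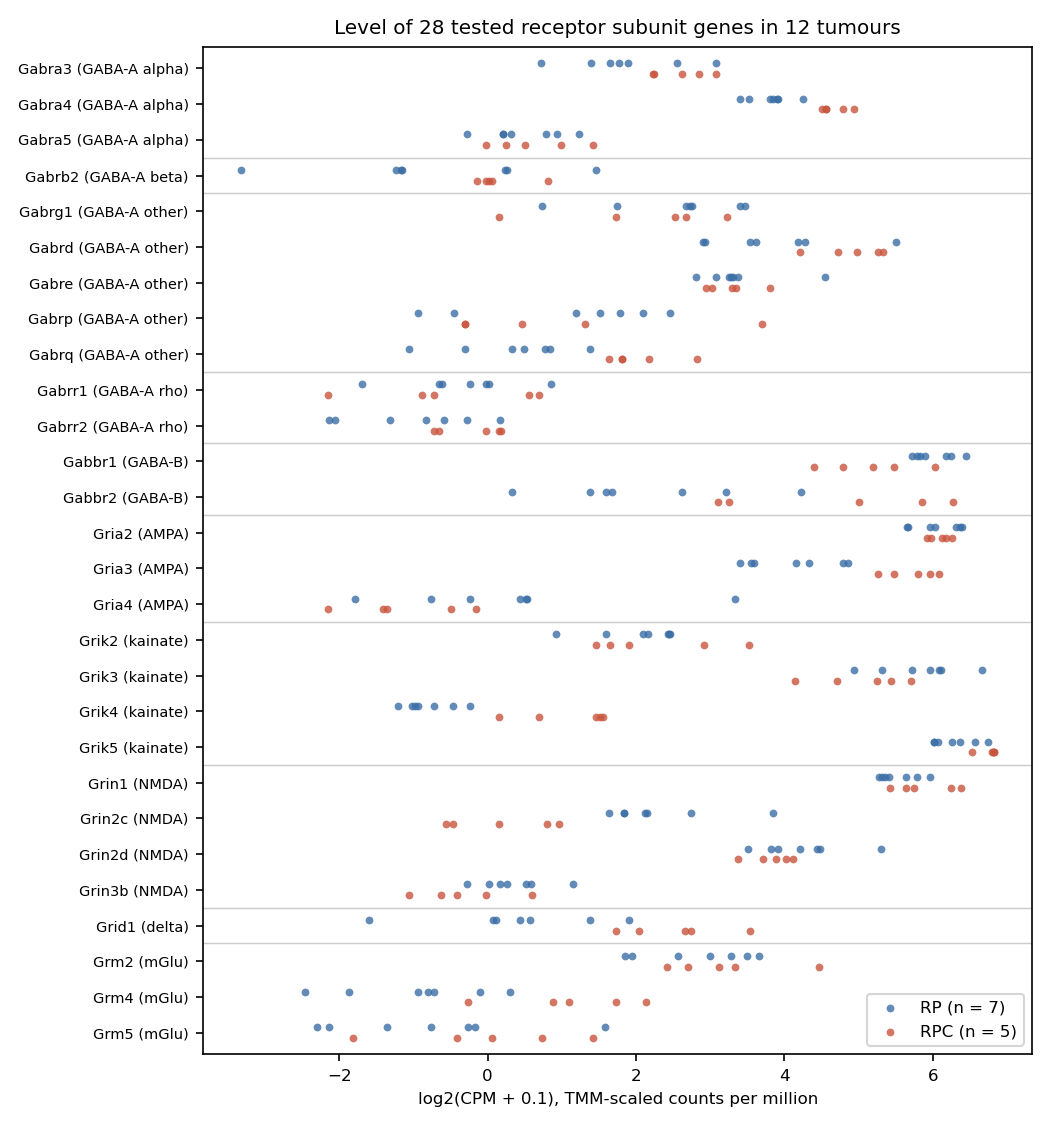
Level of 28 of the tested genes in every tumour, on the x axis as log2 of CPM plus 0.1, with genes grouped by receptor class. Blue points are the 7 RP and red points the 5 RPC tumours. Grik5 stands among the highest, while Gabra4, Gabrq, Gria3 and Grik4 have all red points to the right of all blue points and Grin2c the reverse.

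Levels of different genes were compared per kilobase of exon. Of the genes described here, Grik5, a kainate receptor subunit, had the highest median over the 12 tumours, 24.9 CPM per kb, followed by Grin1 at 11.4, Gabrd at 9.81, Gabbr1 at 8.43, Gria2 at 6.41, Grik3 at 5.31, Gria3 at 5.20 and Gabra4 at 4.04 CPM per kb. The order after Grik5 depended on the length used. Per kilobase of coding sequence, Grik5 was again the highest of these genes, at 31.9 CPM per kb. Gria2 came next at 24.3, then Grik3 at 17.3, Gabbr1 at 17.2 and Grin1 at 16.9, with Gabrd below them. Summed over the 47 genes, the RP-labelled tumours held 514.6 to 808.0 CPM and the RPC-labelled tumours 640.2 to 830.6 CPM, which overlap.

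Among the alpha chains, which with the beta chains form the GABA site, Gabra4 rose in tumours labelled RPC. Gabra4, a chain of receptors outside synapses, ranged from 10.5 to 19.0 CPM in tumours labelled RP (median 14.2), and RPC 1 to RPC 5 held 23.6, 27.6, 23.4, 30.5 and 22.6 CPM. Each RPC-labelled tumour lay above each RP-labelled one, and the log2 fold change was 0.85 ± 0.14 (SE; adjusted p = 0.0048). Gabra4 was the main alpha chain of both genotypes, at 67.7% ± 11.0 (SD, n = 7) of all alpha chain CPM per kb in tumours labelled RP and 70.9% ± 6.07 (SD, n = 5) in those labelled RPC.

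Gabra3 and Gabra5 did not pass the test. Gabra3 ranged from 1.55 to 8.33 CPM in tumours labelled RP and from 4.58 to 8.38 CPM in those labelled RPC (log2 fold change 0.61 ± 0.36, adjusted p = 0.235). Gabra5, another chain of receptors outside synapses, lay at 0.729 to 2.24 CPM and 0.888 to 2.57 CPM (0.14 ± 0.34, adjusted p = 0.795).

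The beta chain Gabrb2 was low, at 0 to 2.64 CPM in tumours labelled RP and 0.802 to 1.67 CPM in those labelled RPC, with a log2 fold change of 0.21 ± 0.65 (adjusted p = 0.842). RP 5, the deepest library, held 2.64 CPM and lay above every other tumour.

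Of the chains that complete the receptor, the theta chain Gabrq rose in tumours labelled RPC. Gabrq ranged from 0.380 to 2.50 CPM in tumours labelled RP (median 1.30), and RPC 1 to RPC 5 held 4.41, 6.96, 3.40, 3.02 and 3.40 CPM. No tumour of either genotype overlapped the other, RPC 2 being the highest, and the log2 fold change was 1.66 ± 0.39 (SE; adjusted p = 0.0163). The call was lost without RPC 2 (1.40, adjusted p = 0.0526). Gabrq lies on the X chromosome beside Gabra3, and without RP 1 and RP 6, the tumours low in Xist, its log2 fold change was 1.72 ± 0.46 (adjusted p = 0.0378). It was 1.72 without RP 1 alone (adjusted p = 0.0178) and 1.66 without RP 6 alone (adjusted p = 0.0328).

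Gabrd, the delta chain of receptors outside synapses, was the most abundant of these chains per kilobase of exon. It ranged from 7.40 to 45.3 CPM in tumours labelled RP (median 12.2), and RPC 1 to RPC 5 held 26.3, 38.4, 18.4, 31.4 and 39.9 CPM. RP 7, at 45.3 CPM, lay above every RPC-labelled tumour, and the difference did not pass the test (log2 fold change 0.83 ± 0.41, adjusted p = 0.166). The epsilon chain Gabre (6.89 to 23.3 against 7.60 to 13.9 CPM), the gamma chain Gabrg1 (1.56 to 11.0 against 1.01 to 9.24 CPM) and the pi chain Gabrp (0.422 to 5.39 against 0.708 to 12.8 CPM) overlapped between tumours labelled RP and RPC. Their log2 fold changes were -0.16 ± 0.28, -0.37 ± 0.51 and 0.41 ± 0.77, none past the test. The rho chains, best known from the retina, were near 1 CPM or below: Gabrr1 held 0.208 to 1.71 against 0.126 to 1.51 CPM (0.01 ± 0.55) and Gabrr2 0.127 to 1.02 against 0.507 to 1.04 CPM (0.79 ± 0.47, adjusted p = 0.243).

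Both GABA-B subunits passed the test, in opposite directions. Gabbr1, the subunit that binds GABA, fell in tumours labelled RPC, and Gabbr2, the subunit that couples to the G protein and brings Gabbr1 to the cell surface, rose. Gabbr1 ranged from 52.7 to 87.2 CPM in tumours labelled RP (median 59.4), and RPC 1 to RPC 5 held 44.3, 21.1, 36.5, 65.2 and 27.5 CPM. RPC 4 lay inside the RP range and the other 4 RPC-labelled tumours below it. On the log2 scale the change of Gabbr1 was -0.75 ± 0.24 (SE; adjusted p = 0.0486). That call was lost on leaving out any 1 of 10 of the tumours, all but RP 3 and RPC 4 (adjusted p between 0.0506 and 0.102).

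Gabbr2 ranged from 1.16 to 18.6 CPM in tumours labelled RP (median 3.09), and RPC 1 to RPC 5 held 57.9, 9.44, 8.49, 77.3 and 31.9 CPM. The RPC-labelled tumours were split, with RPC 2 and RPC 3 inside the RP range and the other 3 above it, and RP 7 was the highest RP-labelled tumour. On the log2 scale Gabbr2 rose by 2.56 ± 0.69 (SE; adjusted p = 0.0264). The rise was 3.14 without RP 7, and the call was lost without RP 2 (adjusted p = 0.0528), RP 6 (adjusted p = 0.0513), RPC 1 (adjusted p = 0.0635) or RPC 4 (adjusted p = 0.0506).

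Within a tumour, the ratio of Gabbr2 to Gabbr1 CPM ranged from 0.0205 to 0.257 in tumours labelled RP (median 0.0561). In RPC 1 to RPC 5 it was 1.31, 0.448, 0.233, 1.19 and 1.16. RPC 3 lay below RP 7, and the other 4 RPC-labelled tumours lay above every RP-labelled one. Per kilobase of exon, Gabbr2 made up 8.83% ± 6.90 (SD, n = 7) of GABA-B RNA in tumours labelled RP and 46.0% ± 17.5 (SD, n = 5) in those labelled RPC.

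**Figure D2:**
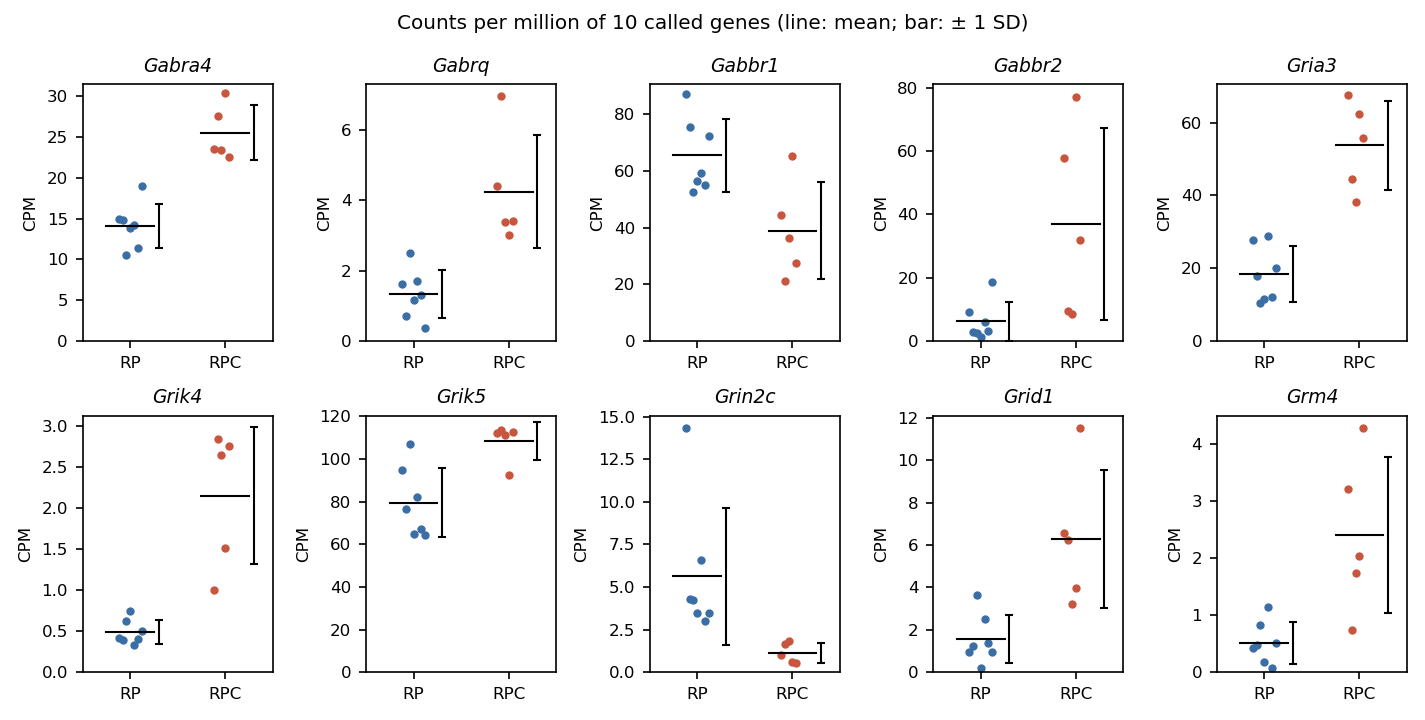
CPM (y axis, from 0) of 10 of the genes that passed the test, 1 point per tumour, 7 RP in blue and 5 RPC in red. The line is the mean and the bar 1 SD to each side, not drawn below 0. Gabbr2 shows the spread of the RPC tumours from 8.49 to 77.3.

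Of the AMPA receptor subunits, which carry fast glutamate currents, Gria3 rose in tumours labelled RPC. Gria3 ranged from 10.5 to 28.9 CPM in tumours labelled RP (median 17.8), and RPC 1 to RPC 5 held 67.6, 44.5, 38.3, 62.4 and 55.8 CPM. The genotypes did not overlap, and the log2 fold change was 1.54 ± 0.27 (SE; adjusted p = 0.0054). Gria3 is X-linked, and without RP 1 and RP 6 its log2 fold change was 1.58 ± 0.28 (adjusted p = 0.0129), against 1.67 without RP 1 alone (adjusted p = 0.0048) and 1.46 without RP 6 alone (adjusted p = 0.0122).

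Gria2, the subunit whose edited form keeps calcium out of AMPA channels, ranged from 50.2 to 83.9 CPM in tumours labelled RP (median 65.1), and RPC 1 to RPC 5 held 69.5, 62.9, 60.5, 76.4 and 72.0 CPM. All RPC-labelled tumours lay inside the RP range (log2 fold change 0.01 ± 0.15, adjusted p = 0.959, with a sign that differed among the alternative fits). Its share of AMPA receptor RNA per kilobase of exon was 63.9% ± 4.39 (SD, n = 7) in tumours labelled RP and 39.8% ± 3.79 (SD, n = 5) in those labelled RPC. The share of Gria3 was 32.6% ± 7.85 (SD, n = 7) and 59.3% ± 3.94 (SD, n = 5). Every RPC-labelled tumour held a larger share of Gria3 than every RP-labelled one, 54.3% to 65.1% against 17.0% to 39.4%. Which of the pair led in tumours labelled RPC depended on the length used: per kilobase of coding sequence Gria2 held 56.1% and Gria3 43.2%.

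Gria4, a further AMPA subunit, did not pass the test. It ranged from 0.190 to 9.99 CPM in tumours labelled RP (median 1.26), with RP 3 alone above 1.34 CPM, and RPC 1 to RPC 5 held 0.126, 0.275, 0.613, 0.799 and 0.290 CPM. The log2 fold change was -2.32 ± 0.91 (adjusted p = 0.0905) and -1.10 without RP 3.

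**Figure D3:**
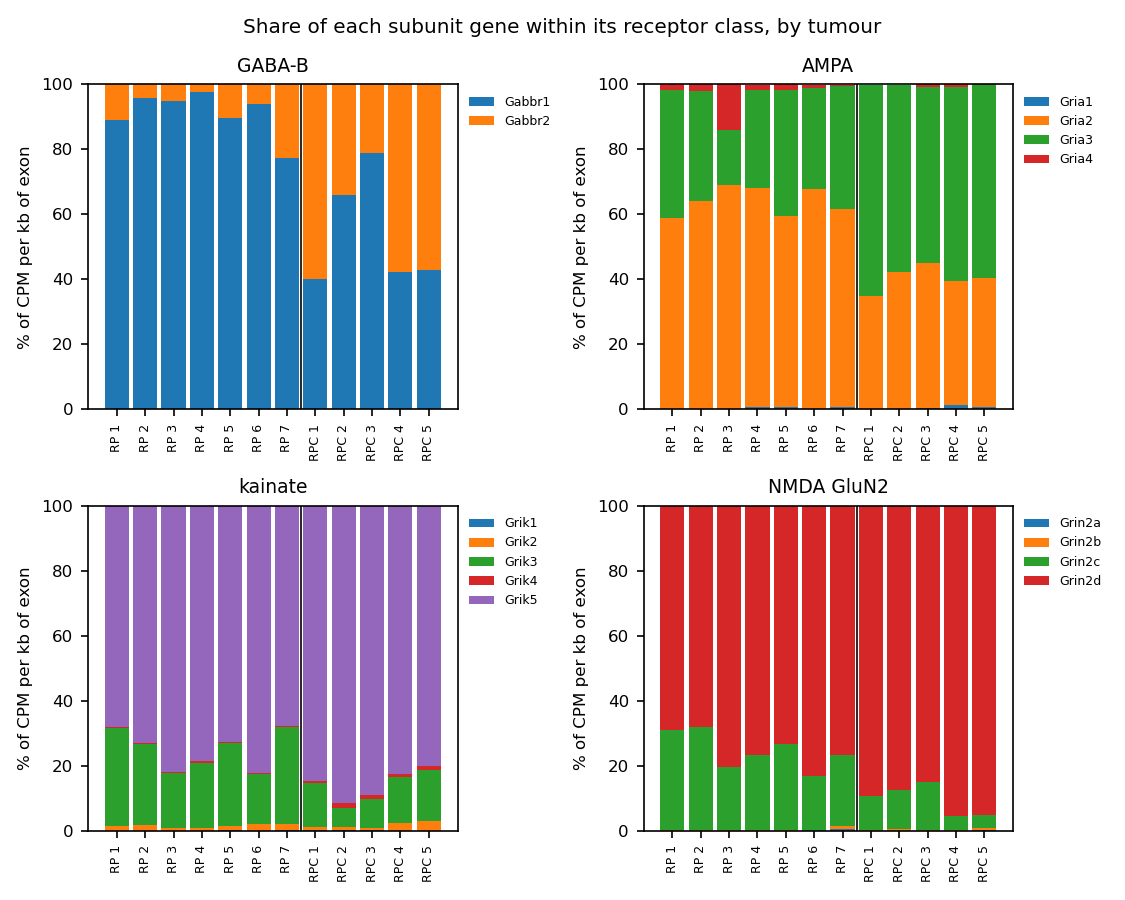
Stacked bars of the share of each subunit gene in the CPM per kb of exon of its receptor class, in percent, for each tumour (x axis) in 4 classes. The vertical line parts the 7 RP from the 5 RPC tumours. The Gria3 part of the AMPA bars is larger in each RPC tumour than in each RP tumour, the Grin2c part of the GluN2 bars is smaller, and the Gabbr2 part of the GABA-B bars varies widely among RPC tumours.

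Among the kainate subunits, the high affinity subunits Grik4 and Grik5, which form channels only together with the others, rose in tumours labelled RPC. Grik4 was low, ranging from 0.335 to 0.752 CPM in tumours labelled RP (median 0.422), and RPC 1 to RPC 5 held 1.01, 2.84, 2.64, 1.51 and 2.75 CPM. The genotypes did not overlap, and the difference was 2.13 ± 0.32 on the log2 scale (SE; adjusted p = 0.0032), but the gene was tested only because the RPC-labelled tumours passed the filter.

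Grik5 ranged from 64.5 to 106.8 CPM in tumours labelled RP (median 76.5), and RPC 1 to RPC 5 held 112.1, 113.5, 111.2, 92.4 and 112.7 CPM. RPC 4 lay inside the RP range and the other 4 RPC-labelled tumours above it, between 111.2 and 113.5 CPM. The rise was small, 0.45 ± 0.13 on the log2 scale (SE; adjusted p = 0.037). That call was lost on leaving out any 1 of 9 tumours, all but RP 1, RP 3 and RPC 4 (adjusted p between 0.0561 and 0.103).

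The pore-forming kainate subunits did not pass the test. Grik3 ranged from 30.5 to 101.1 CPM in tumours labelled RP (median 62.3) and held 43.0, 17.5, 26.0, 37.8 and 52.3 CPM in RPC 1 to RPC 5, with 2 RPC-labelled tumours below the RP range (log2 fold change -0.77 ± 0.31, adjusted p = 0.0947). Grik2 ranged from 1.79 to 5.39 CPM and 2.64 to 11.4 CPM (0.43 ± 0.39, adjusted p = 0.453). Per kilobase of exon, Grik5 made up 74.9% ± 6.09 (SD, n = 7) of kainate receptor RNA in tumours labelled RP and 85.6% ± 4.62 (SD, n = 5) in those labelled RPC, and Grik3 23.4% ± 5.93 and 11.6% ± 4.11. Every RPC-labelled tumour held a smaller share of Grik3 than every RP-labelled one, at most 15.599% against at least 15.632%, a gap far under the spread within either genotype.

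Of the NMDA receptor subunits, Grin2c fell in tumours labelled RPC and the obligate subunit Grin1 did not pass the test. Grin2c, a GluN2 subunit that in the brain is typical of the cerebellum, ranged from 3.01 to 14.3 CPM in tumours labelled RP (median 4.27), and RPC 1 to RPC 5 held 1.01, 1.65, 1.84, 0.622 and 0.579 CPM. All RPC-labelled tumours lay below all RP-labelled ones, of which RP 1 was the highest. Its change was -2.29 ± 0.48 on the log2 scale (SE; adjusted p = 0.0111), and the call held without any 1 tumour. The filter was passed by 7 RP-labelled and 3 RPC-labelled tumours, so Grin2c too was tested only through the genotype in which it is high.

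Grin1 ranged from 38.7 to 62.5 CPM in tumours labelled RP (median 42.3), and RPC 1 to RPC 5 held 83.0, 43.0, 53.7, 75.4 and 49.7 CPM (log2 fold change 0.38 ± 0.18, adjusted p = 0.149). RPC 1 and RPC 4 lay above the RP range. In GENCODE M21, 29.9% of the Grin1 exon sequence is overlapped by the antisense gene Grin1os, and the strand setting of the counting is not given, so reads of the pair cannot be told apart. Grin2d, the main GluN2 gene of both genotypes, ranged from 11.3 to 39.2 CPM and 10.3 to 17.2 CPM (-0.51 ± 0.27, adjusted p = 0.200). The glycine-binding subunit Grin3b ranged from 0.729 to 2.11 CPM and 0.378 to 1.42 CPM (-0.63 ± 0.36, adjusted p = 0.226). Grin2c made up 24.3% ± 5.70 (SD, n = 7) of GluN2 RNA per kilobase of exon in tumours labelled RP and 9.15% ± 4.75 (SD, n = 5) in those labelled RPC, without overlap.

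The delta receptor Grid1, of a family that acts as synaptic organisers that bind cerebellins more than as glutamate channels, rose in tumours labelled RPC. Grid1 ranged from 0.231 to 3.64 CPM in tumours labelled RP (median 1.26), and RPC 1 to RPC 5 held 6.55, 6.23, 3.21, 3.996 and 11.5 CPM. The groups overlapped through RP 3, at 3.64 CPM, and RPC 3. Grid1 rose by 2.01 ± 0.51 on the log2 scale (SE; adjusted p = 0.0214), and the call was lost without RPC 2 (adjusted p = 0.0517) or RPC 5 (adjusted p = 0.0558).

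Of the metabotropic receptors, Grm4 rose in tumours labelled RPC. Grm4, a group III receptor that lowers cAMP, ranged from 0.0812 to 1.14 CPM in tumours labelled RP (median 0.472), and RPC 1 to RPC 5 held 3.21, 0.733, 1.75, 2.04 and 4.27 CPM. RPC 2 lay inside the RP range and the other 4 RPC-labelled tumours above it. The log2 fold change was 2.14 ± 0.53 (SE; adjusted p = 0.0199), and the call was lost without RPC 1 (adjusted p = 0.0502). The filter was passed by 5 RPC-labelled and 2 RP-labelled tumours, so Grm4 was tested only through the genotype in which it is high.

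Grm2, a group II receptor that lowers cAMP, was the most abundant metabotropic receptor per kilobase of exon in both genotypes. It ranged from 3.49 to 12.5 CPM in tumours labelled RP and from 5.24 to 22.0 CPM in those labelled RPC (log2 fold change 0.43 ± 0.40, adjusted p = 0.467). Grm5, a group I receptor that raises intracellular calcium, ranged from 0.104 to 2.90 CPM and 0.183 to 2.58 CPM (0.48 ± 0.74, adjusted p = 0.666). Neither separated the genotypes.

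**Figure D4:**
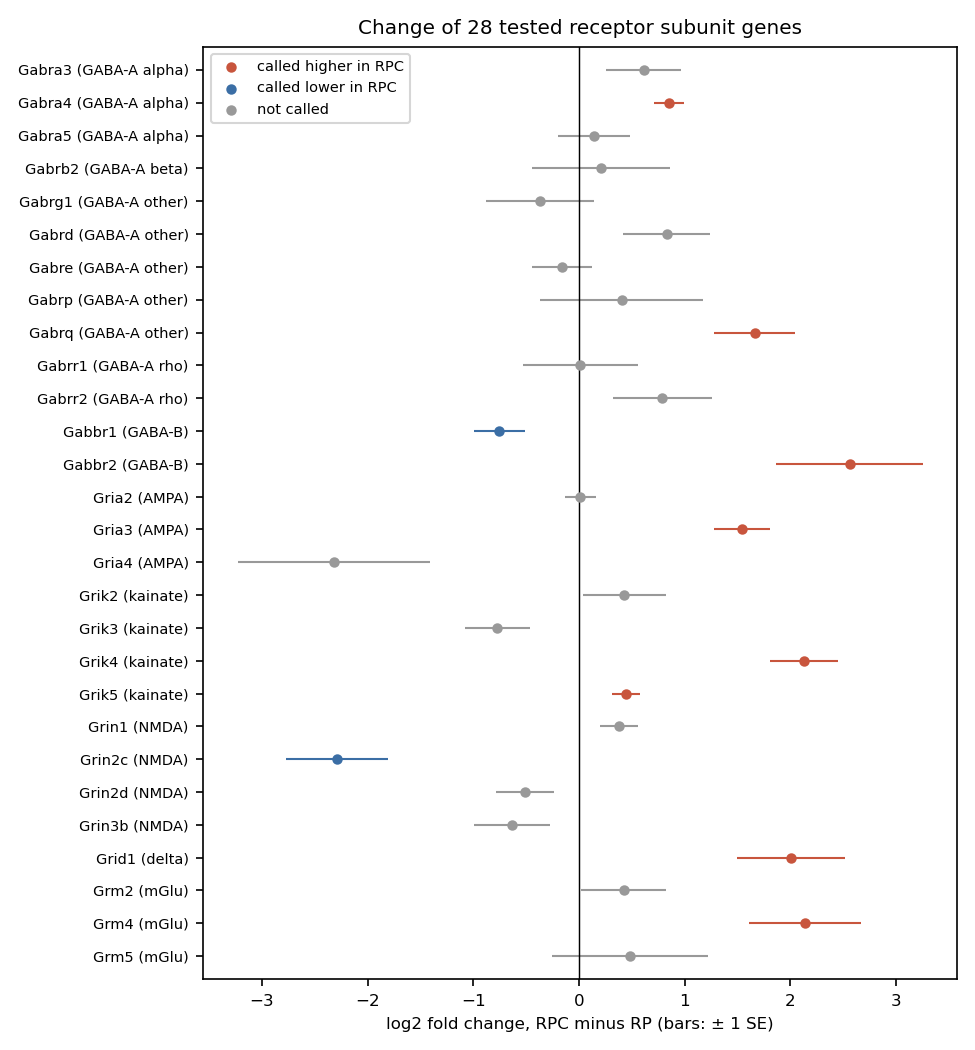
Log2 fold change of 28 of the tested genes, RPC minus RP (x axis), with bars of 1 SE to each side, by receptor class. Red points passed the test as higher, blue as lower, grey did not pass. The points spread from -2.32 for Gria4 to 2.56 for Gabbr2, and the abundant gene Gria2 lies at 0.01.

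The 15 genes with too few counts to be tested stayed at or below 2.24 CPM in every tumour, and 4 of them, Gabra6, Gabrr3, Grm3 and Grm6, stayed under 3 counts in each. Gabrr3, a rho chain, had no count in any tumour. The other 11, with 3 or more counts in some tumour, included the GABA-A chains Gabra2 (at most 0.507 CPM), Gabrb1 (0.622 CPM) and Gabrg3 (0.254 CPM), the AMPA subunit Gria1 (1.51 CPM), the kainate subunit Grik1 (0.367 CPM), the NMDA subunits Grin2a (0.254 CPM), Grin2b (0.761 CPM) and Grin3a (0.281 CPM), and the metabotropic receptors Grm7 (2.24 CPM) and Grm8 (0.724 CPM). Grm7, a low affinity group III receptor, held 0 to 0.254 CPM in tumours labelled RP and 0.189, 0.733, 1.75, 0.622 and 2.24 CPM in RPC 1 to RPC 5, so RPC 1 lay inside the RP range. With no filter on low counts, Grm7 passed the test (log2 fold change 3.51 ± 0.74, adjusted p = 0.0133). Grin2a and Grin2b, the main GluN2 subunits of the forebrain, were thus at 0.761 CPM or less in every tumour, and Grin2d and Grin2c were the GluN2 genes that could be tested.

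Genes that supply the transmitters or hold the receptors in place were taken as 6 lists. The counts per list stand against 18.3% of all tested genes passing the test (9.64% higher and 8.61% lower in tumours labelled RPC). Of the 4 tested genes of GABA synthesis, breakdown and uptake, Slc6a12, a betaine and GABA transporter that reached the filter only through the RP-labelled tumours, fell and none rose (median log2 fold change 0.03). It ranged from 1.56 to 7.08 CPM in tumours labelled RP and from 0.566 to 2.21 CPM in those labelled RPC (-1.64 ± 0.47, adjusted p = 0.0333), and the call was lost without any 1 of 7 tumours (RP 2, RP 4, RP 6, RP 7, RPC 2, RPC 3 or RPC 5, adjusted p up to 0.0844). Gad1 and Gad2 encode the enzymes that make GABA. Gad2 did not pass the test, with 0.472 to 2.08 CPM in tumours labelled RP and 0.622 to 2.10 CPM in those labelled RPC (log2 fold change 0.37 ± 0.39, adjusted p = 0.520), and it was above Gad1 in CPM in every RP-labelled tumour. Gad1 was not tested: it was at 0.0579 to 0.134 CPM in tumours labelled RP and at 1.39, 5.22, 2.17, 0 and 6.73 CPM in RPC 1 to RPC 5. RPC 4 had no Gad1 count, and the other 4 RPC-labelled tumours lay above every RP-labelled one. Gad2 was above Gad1 in RPC 1 and RPC 4 and below it in RPC 2, RPC 3 and RPC 5, in CPM not scaled for gene length. Gad1 and Gad2 were singled out after their values were seen. Slc32a1, the vesicle transporter for GABA, had no count in tumours labelled RPC and at most 0.127 CPM in those labelled RP.

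Of the 11 tested genes of GABA receptor clustering and trafficking, 3 rose and none fell (median 0.13). Lhfpl4, which carries gamma-containing GABA-A receptors to inhibitory synapses, ranged from 25.1 to 47.1 CPM and from 45.2 to 56.6 CPM (log2 fold change 0.56 ± 0.14, adjusted p = 0.0197; adjusted p = 0.0508 without RPC 1). Kctd12, an auxiliary subunit of GABA-B receptors, ranged from 105.0 to 162.3 CPM and from 142.1 to 207.0 CPM (0.51 ± 0.14, adjusted p = 0.026), and Trak2, a trafficking adaptor, from 59.2 to 78.3 CPM and from 78.5 to 94.0 CPM (0.31 ± 0.09, adjusted p = 0.0284). The Kctd12 call was lost without any 1 of RP 2, RP 4, RP 6, RPC 1, RPC 2 and RPC 5 (adjusted p up to 0.0735), and the Trak2 call without any 1 of RP 2, RP 4, RP 5, RP 6, RP 7, RPC 1, RPC 2 and RPC 5 (adjusted p up to 0.0821). The scaffold gene Gphn, which anchors GABA-A and glycine receptors, did not pass the test.

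Of the 9 tested genes of glutamate synthesis and uptake, 2 rose and 2 fell (median -0.13). Slc1a2, the main glutamate transporter of astrocytes, ranged from 0.926 to 5.77 CPM and from 5.41 to 15.2 CPM (log2 fold change 1.65 ± 0.39, adjusted p = 0.0174), and Slc1a4, a neutral amino acid transporter of the same family, from 36.8 to 58.5 CPM and from 54.2 to 85.7 CPM (0.61 ± 0.16, adjusted p = 0.0214; adjusted p = 0.0572 without RPC 1). Slc1a3, a further glutamate transporter, fell, and ranged from 1.87 to 12.5 CPM and from 0.945 to 2.97 CPM (-1.73 ± 0.47, adjusted p = 0.0272), a call that was lost without RP 4, RP 6, RPC 1 or RPC 2 (adjusted p up to 0.072). The transporters of this list thus moved in both directions.

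The auxiliary subunits and extracellular partners of the glutamate receptors had the highest median of the 6 lists. Of 15 tested genes, 6 rose and 1 fell (median 0.70, against -0.02 over all tested genes). Cnih2, which slows the closing of AMPA receptors, ranged from 3.23 to 9.35 CPM in tumours labelled RP, and RPC 1 to RPC 5 held 20.9, 21.7, 20.3, 11.6 and 25.4 CPM (log2 fold change 1.57 ± 0.26, adjusted p = 0.0048). Neto2, the auxiliary subunit of kainate receptors, ranged from 2.19 to 10.8 CPM and from 13.0 to 32.4 CPM (1.78 ± 0.34, adjusted p = 0.0075). Olfm1, a secreted partner of AMPA receptors, ranged from 46.9 to 61.1 CPM and from 65.5 to 82.8 CPM (0.53 ± 0.09, adjusted p = 0.0052). None of these overlapped between the genotypes.

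Cbln4, a cerebellin of the family that binds delta receptors, was at 0 to 0.347 CPM in tumours labelled RP and at 2.33, 1.38, 5.85, 2.04 and 1.16 CPM in RPC 1 to RPC 5 (fitted log2 fold change 4.0 ± 0.67, adjusted p = 0.0046, and 3.42 without RPC 3). It passed the filter through the RPC-labelled tumours alone. Shisa9, an AMPA receptor partner that reached the filter only through the RP-labelled tumours, fell, with 1.01 to 8.33 CPM in tumours labelled RP and 0.622 to 1.59 CPM in those labelled RPC (-1.90 ± 0.48, adjusted p = 0.0217), a call lost without RPC 1 (adjusted p = 0.0559) or RPC 2 (adjusted p = 0.0571). The AMPA and kainate partners that rose thus included Cnih2 and Neto2, while Shisa9 fell.

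Of the 19 tested postsynaptic scaffold genes, 6 rose and none fell (median 0.33). Grip1, which binds the tails of AMPA receptors, ranged from 0.650 to 1.56 CPM and from 2.46 to 7.06 CPM (log2 fold change 2.17 ± 0.30, adjusted p = 0.002), and its paralogue Grip2 from 0 to 1.01 CPM and from 1.09 to 3.55 CPM (2.13 ± 0.52, adjusted p = 0.0193; adjusted p = 0.054 without RPC 2). Grip2 was tested only through the RPC-labelled tumours, since 1 RP-labelled tumour passed the filter. Dlgap3, a scaffold of the postsynaptic density, ranged from 21.2 to 42.7 CPM and from 58.9 to 99.2 CPM (1.32 ± 0.17, adjusted p = 0.0016). Its paralogue Dlgap1 ranged from 0.312 to 1.20 CPM and from 0.896 to 8.70 CPM (1.92 ± 0.48, adjusted p = 0.0207, and 1.25 without RPC 4). Grip1, Grip2 and Dlgap3 did not overlap between the genotypes. Of the glycine receptor subunits, the nearest relatives of the GABA-A chains, Glrb alone was tested and did not pass (0.19 ± 0.20, adjusted p = 0.503).

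**Figure D5:**
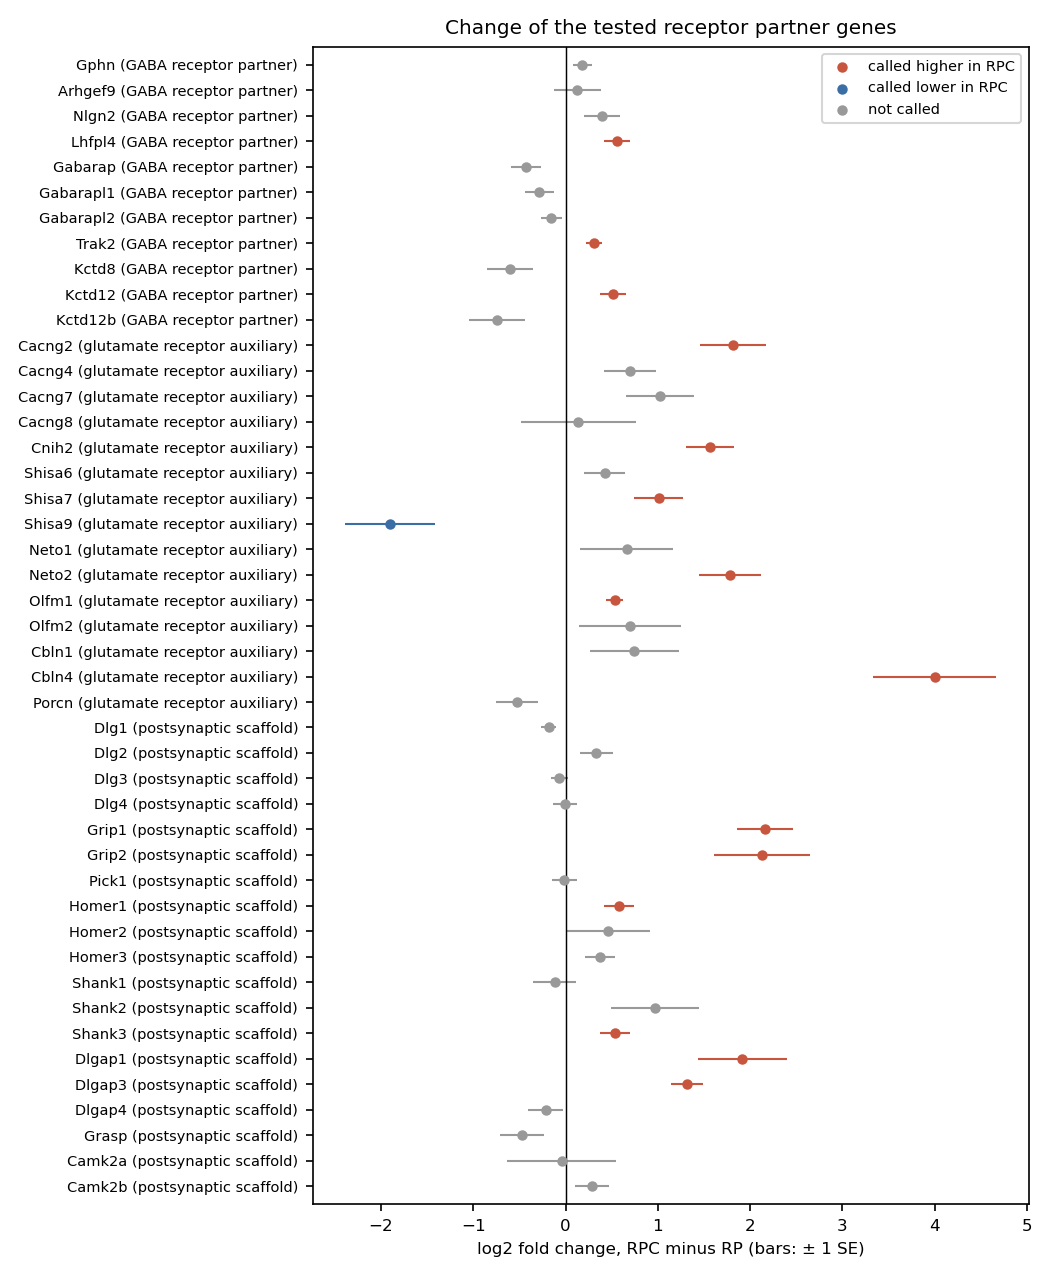
Log2 fold change, RPC minus RP (x axis), of the tested genes of 3 lists of receptor partners, with bars of 1 SE to each side. Red points passed the test as higher, blue as lower, grey did not pass. Cbln4 stands farthest right at 4.0 and Shisa9 is the one blue point, at -1.90.

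Markers of other cell types were counted in the same test, which 18.3% of all tested genes passed (9.64% higher and 8.61% lower in tumours labelled RPC). Of 10 adipocyte genes all 10 fell in tumours labelled RPC, with a summed level of 86.0 to 1661 CPM in tumours labelled RP and 60.1 to 120.2 CPM in those labelled RPC. The RP-labelled tumours were split in the mean standardised log2 CPM of these genes, used below as a score. It was 1.31, 1.17, 1.58 and 0.69 in RP 2, RP 4, RP 6 and RP 7. In RP 1, RP 3 and RP 5 it was -0.61, -0.15 and -0.33, against -1.01 to -0.46 in tumours labelled RPC. Of 11 tested thyroid follicular genes 2 fell and none rose, where 8.61% of all tested genes fell. Their median log2 fold change was -1.81. The summed level of the list, which includes thyroglobulin (Tg), was 1644 to 9306 CPM against 55.8 to 5760 CPM. Of 5 tested glial genes 2 fell (summed level 123.5 to 168.9 against 101.4 to 128.9 CPM), and of 7 tested neuronal genes not used to define neuroendocrine cells 2 rose and 1 fell (341.5 to 592.5 against 462.5 to 685.6 CPM). No marker of these lists was at 0 in all tumours. The 10 neuroendocrine genes summed to 95587 to 233437 CPM in tumours labelled RP and 25661 to 138650 CPM in those labelled RPC, most of it Calca (log2 fold change -1.21, adjusted p = 0.103). Of these genes Ddc rose and none fell, and Scg2 (-1.05, adjusted p = 0.0735) and Chga (-0.81, adjusted p = 0.154) did not pass the test. Of 8 tested muscle and 8 tested macrophage genes none passed the test, and 1 of 7 endothelial and 1 of 7 fibroblast genes fell.

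With a score of the follicular genes as a covariate in edgeR, 0 of the 12 genes passed the test (7 of the 32 had an unadjusted p under 0.05), and 3 genes passed in the whole table. The groups barely overlap in that score, which was -0.24 to 0.93 in tumours labelled RP and -1.78 to 0.04 in those labelled RPC. The log2 fold change of Gria3 was then 1.81 ± 0.46 (adjusted p = 0.217), of Gabra4 1.01 ± 0.24 (adjusted p = 0.215), of Grin2c -2.44 ± 0.82 (adjusted p = 0.310) and of Gabbr2 3.70 ± 1.10 (adjusted p = 0.271), while that of Gabbr1 was -0.0032 ± 0.27, of Grid1 0.66 ± 0.69 and of Gabrq 0.68 ± 0.51. With an adipocyte score, added after the data were seen, 43 genes passed in the whole table (0.287% of those tested). Grin2c alone of the receptor genes passed (-3.03 ± 0.46, adjusted p = 0.0277). The groups overlap little in that score too, at -0.61 to 1.58 in tumours labelled RP and -1.01 to -0.46 in those labelled RPC. The part of these cell types in the receptor results was not tested further.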

How the data were processed

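RNA sequencing of 12 tumours was analysed from raw counts per gene. The authors deposited 1 count table per tumour with 23284 genes, and, per the submitters' processing notes, used bcl2fastq 1.8.2, TopHat2 2.0.12 and HTSeq 0.6.1 on genome build mm9. Per the labels' protocols, libraries were made from polyadenylated RNA. Neither the gene annotation nor the strandedness used by the counter is given in the sources used here. The 5 summary rows of each table were left out. They hold, among others, reads outside genes (13.1% to 17.6% of a table) and multiply aligned reads (10.9% to 18.5%).

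Libraries were scaled by TMM, and genes that passed filterByExpr (minimum count 10) were tested with edgeR 4.0.16 (robust quasi-likelihood F test in R 4.3.3, 12 tumours, no covariates, Benjamini-Hochberg adjustment over all 14989 tested genes, called under 0.05). The SE is the log2 fold change divided by the square root of F. The floor reflects counting only, while each SE and SD reflects the spread among the tumours sequenced. Exon lengths came from GENCODE M21 and start regions and gene order from RefSeq (GRCm38.p6), with no coordinates of the count tables used. In simulated counts with the means and depths of these tumours, edgeR called 55 of 100 genes given a 2-fold change and 93 of 100 given a 4-fold one. No other genes were changed there, a far smaller share than passed in the tumours. The adjustment for multiple tests was therefore stricter, and these rates do not carry over directly.

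The receptor genes, the partner and marker lists and the tests were chosen with earlier results of these data known. Some genes are not reported here, though the counts over the set, the lists and the whole table include them. The other tested receptor genes are all named, untested ones where they reach 3 counts, and of each partner list up to 4 genes with the smallest p per direction. DESeq2 1.42.0, limma 3.58.1 (voom with sample weights), other scalings and filters, left-out tumours, a replicate block and marker covariates were the alternatives. Symbols of 3 list genes were not found.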

Additional observations from a re-analysis of the deposited data

Results flagged for a closer look

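In 5 of 90 sets of 1 gene in 1 genotype, the highest or lowest tumour stood apart from the others by Dixon's test on log2 CPM, and chance flags about 1 in 20. Gabrb2 was at 1.67 CPM in RPC 5, with the other RPC-labelled tumours at 0.802 to 0.945 CPM. Gabre reached 23.3 CPM in RP 3, against 6.89 to 10.3 CPM in the other RP-labelled tumours. Grik5 was lowest in RPC 4, at 92.4 CPM, against 111.2 to 113.5 CPM. Among the partner genes, Trak2 was at 94.0 CPM in RPC 5, against 78.5 to 82.4 CPM, and Cnih2 was lowest in RPC 4, at 11.6 CPM, against 20.3 to 25.4 CPM.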

How the results depend on the processing

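Of the 10 receptor genes described above that passed the test, Gabra4, Gria3, Grik4 and Grin2c kept the call without any 1 tumour, and none of the 10 changed sign in any fit. Leaving out 1 tumour each gave 7 to 12 receptor genes (6 to 10 higher, 1 to 2 lower), 1074 to 3510 genes in all (2736 with all tumours) and 13 to 31 partner genes (21 with all tumours). With limma voom, 15 of the 32 receptor genes passed, but so did 6352 genes in all (42.4% of those tested) and 32 partner genes. DESeq2 called 14 of the tested receptor genes and 23.9% of all genes it tested. Without the filter, 46 receptor genes were tested, and 11 passed as higher and 1 as lower, with 2379 genes in all (11.6%). The labels do not say whether tumour numbers shared between genotypes pair the tumours. Of the 5 pairs, 2 correlated over 0.1, and 1 of 5 RPC-labelled tumours correlated best with its own number. So few pairs cannot decide it. With tumours 1 to 5 of each genotype and the replicate block, 4 receptor genes passed (3 higher, 1 lower), with 463 genes (3.12%) and 8 partner genes. Without the block, 8 receptor genes passed (7 higher, 1 lower), with 868 genes (5.85%) and 11 partner genes. With the follicular score as covariate, 0 receptor genes passed in either direction, 3 genes in all and 0 partner genes in edgeR, with 7 receptor genes at an unadjusted p under 0.05. DESeq2 and voom were run without that score. Of the alternatives added after the data were seen, the fit without RP 1 and RP 6 gave 7 receptor genes (6 higher, 1 lower), the fit without RP 3 and RPC 4 gave 4180 genes and 34 partner genes, the fit without RP 6 and RPC 5 gave 5 receptor genes (4 higher, 1 lower), 756 genes and 9 partner genes, and the adipocyte score gave 1 receptor gene (0 higher, 1 lower), 43 genes and 0 partner genes. The causes of these changes were not tested. Per coding length, Gabrd made up 58.1% of its pool in tumours labelled RPC, Gria2 77.1% and 56.1%, and Grik5 54.5% and 71.0%, in tumours labelled RP and RPC.

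The sign of the log2 fold change differed from that given above in 41 fits of 12 genes, none of which passed the test with all tumours. Gria2 was -0.0016 with upper quartile scaling, -0.064 with the replicate block, -0.083 without it, -0.087 with the follicular and -0.35 with the adipocyte score, -0.0098 without RP 1 and RP 6, and -0.067 without RP 6 and RPC 5. With voom, Gabra5 was -0.017, Gabre 0.12, Gabrp -0.53 and Gabrr1 -0.44. With the follicular score, Gabra3 was -0.18, Gabra5 -0.34, Gabrg1 1.49, Gabrp -0.86, Grin3b 0.15 and Grm2 -0.65. The adipocyte score gave -0.27 for Gabrb2, 0.027 for Grin3b and -0.11 for Grm5. Without RP 3 and RPC 4, Gabre was 0.12 and Grm5 -0.14. Without RP 6 and RPC 5, Gabrb2 was -0.16 and Gabrp -1.12, and Gabrb2 was -0.084 without RP 1 and RP 6. With 1 tumour left out at a time, the values ran from -0.049 to 0.065 for Gria2, -0.12 to 0.30 for Gabra5, -0.029 to 0.90 for Gabrb2, -0.32 to 0.13 for Gabre, -1.09 to 0.68 for Gabrp, -0.40 to 0.30 for Gabrr1, -0.016 to 0.61 for Grik2 and -0.053 to 0.59 for Grm2. Differences in level between genes near the floor of 3 counts were not tested.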

Other observations

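Some partner genes that passed the test were not named above, and were named here after their values were seen. Cacng2 (stargazin), the prototype auxiliary subunit of AMPA receptors, ranged from 1.95 to 9.06 CPM in tumours labelled RP, and RPC 1 to RPC 5 held 17.1, 23.6, 10.2, 11.3 and 23.0 CPM. The genotypes did not overlap, and the log2 fold change was 1.81 ± 0.35 (SE; edgeR adjusted p = 0.0086). Shisa7, a partner of AMPA and GABA-A receptors, ranged from 6.77 to 15.8 CPM and from 15.5 to 33.1 CPM (1.01 ± 0.27, adjusted p = 0.0244). Of the scaffolds that link metabotropic receptors to the postsynaptic density, Homer1 ranged from 5.59 to 9.18 CPM and from 8.95 to 13.3 CPM (0.58 ± 0.17, adjusted p = 0.0313), and Shank3 from 11.4 to 20.6 CPM and from 17.2 to 24.96 CPM (0.54 ± 0.16, adjusted p = 0.039).

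The neuronal genes that passed the test were likewise named after their values were seen. Elavl3, a neuronal RNA-binding protein, ranged from 2.09 to 17.6 CPM in tumours labelled RP and from 53.8 to 171.3 CPM in those labelled RPC (log2 fold change 3.52 ± 0.51, adjusted p = 0.0024). Stmn2, a regulator of microtubules in growing neurites, ranged from 2.11 to 4.37 CPM and from 8.76 to 17.1 CPM (1.88 ± 0.24, adjusted p = 0.0015). Snap25, a fusion protein of synaptic and hormone vesicles, fell, with 257.1 to 358.1 CPM and 167.7 to 304.9 CPM (-0.45 ± 0.14, adjusted p = 0.0406). Their part in the receptor results was not tested.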
